A study of Ovis aries with 6 samples.

Results

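Hair shaft keratins were examined in dorsal skin of newborn Hu lambs, a Chinese sheep breed kept for the wavy pelt of its young. The 6 genes are K38, KRT2.11, KRT33A, KRT35, LOC100526780 (KRT83) and V15 (KRT31), in the symbols of the RefSeq table. They were chosen by the RefSeq transcript printed beside each probe, and all 10 probes of these transcripts were used, out of 15008 probes on the array and 500 genes that could be named. K38 and KRT35 had 2 probes each, KRT2.11 had 3, and the other genes had 1. Skin was taken from 3 lambs with a large wave and 3 with a small wave coat, all 2 days old and with no treatment named in the labels, and each lamb was hybridised to 1 one-colour array. The design text gives all lambs 1 sire and gives each pair of a large and a small wave lamb 1 dam. The labels number the lambs 1 to 3 in each group without saying that a number marks a pair. Lambs of the same number are called a pair below.

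Hair keratins are the filament proteins of the hair and wool fibre. They are made by keratinocytes that leave the hair matrix and harden into the cortex and cuticle of the shaft. A filament needs a type I (acidic) and a type II (neutral to basic) keratin in equal parts, and keratin-associated proteins later cross-link the filaments. V15, KRT33A, KRT35 and K38 are type I. In the RefSeq assembly's gene order all 4 are on 1 chromosome, with K38 next to V15 and KRT32 between K38 and KRT35. LOC100526780 and KRT2.11 are type II and are direct neighbours. Keratins of 1 type are close in sequence, so a probe's signal may include RNA of a near copy.

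Arrays differed in overall brightness. The 75th percentile of the processed signal (an intensity with the background subtracted) ranged from 94.7 to 391.5 and was 1.37, 1.34 and 2.63 times higher in the large wave array of pairs 1 to 3. This spread was smaller among bright probes. Between the highest and the lowest array, the 75th percentile differed 4.13-fold and the 99th percentile 2.82-fold. Scaling by the 75th percentile and matching whole distributions therefore give bright probes different values, and both are reported for the keratins.

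The hair keratins were among the brightest probes of the skin RNA. All 60 spots (10 probes on 6 arrays) were well above background, and 0 were saturated. The brightest 1% of an array is 150 probes, and 30 of the 60 keratin spots lay in it, 14 of 30 in large wave and 16 of 30 in small wave skin. The type I probes gave 15 of 36 spots in this class and the type II probes 15 of 24. The lowest rank of any spot was 1990, inside the top 13.3% of probes. Rank depends on how well a probe binds as well as on the transcript, so ranks are compared below between arrays for the same probe. A rank needs no scaling between arrays. The authors' deposited table gives every keratin spot the same rank as the processed signal, so its count of 30 in the brightest 1% is no separate check.

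**Figure D1:**
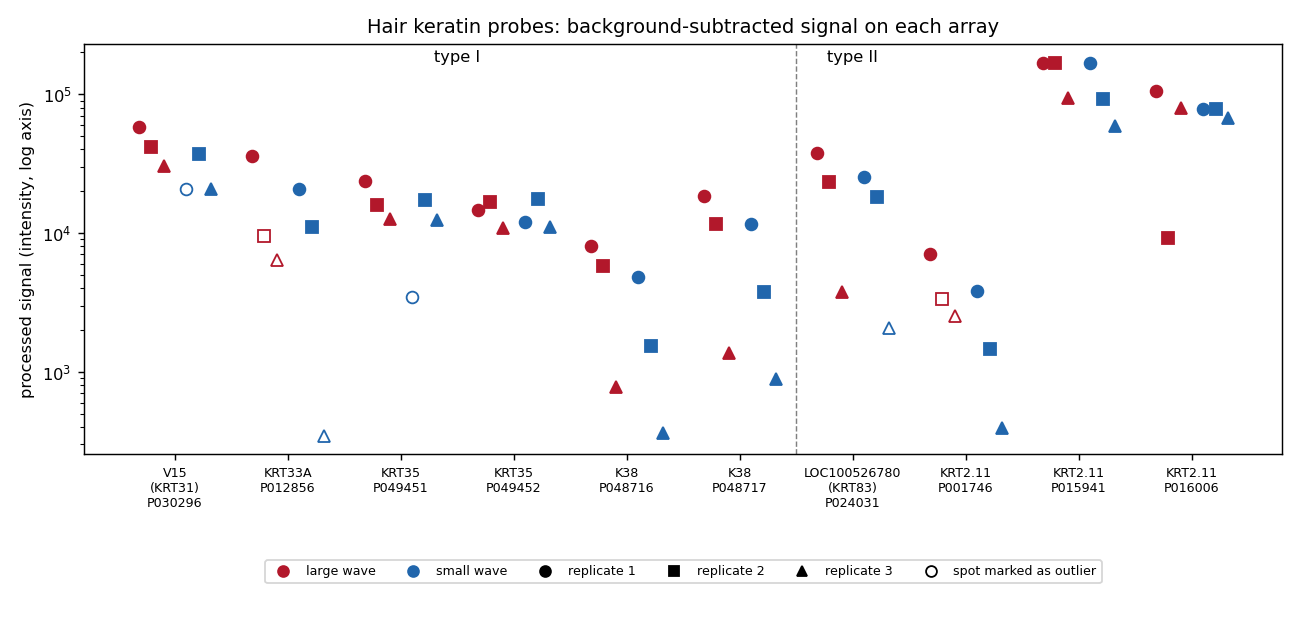
Processed signal (intensity, log axis) of each of the 10 hair keratin probes on the 6 arrays; colour gives the wave group, shape the replicate number, and open symbols are spots that the scanner software marked as outliers. Large and small wave arrays overlap at every probe when all spots are shown, and K38 and LOC100526780 are lowest in replicate 3 of both groups.

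V15, keratin 31, is a type I keratin of the cortex. Its processed signal was 57821, 41574 and 30415 in the large wave lambs, in the order of their replicate numbers as in all values below. The small wave lambs had 20697, 36846 and 20760. The groups overlapped, with the third large wave lamb below the second small wave lamb. Its rank was between 33 and 55 on 5 arrays and 115 in small wave replicate 1, where its spot was marked as not uniform. KRT33A, also a type I keratin of the cortex, had signals of 35925, 9550 and 6343 in large wave and 20643, 11101 and 347 in small wave skin. Its small wave replicate 3 stood apart, 104-fold below the highest array and at rank 1990. That spot and the spots of large wave replicates 2 and 3 were marked as not uniform, so 1 large wave and 2 small wave values remain for KRT33A once marked spots are left out.

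KRT35 is among the first hair keratins made as cells leave the matrix. Its unmarked probe (A_70_P049452) gave 14749, 16833 and 10820 in large wave and 11919, 17478 and 11087 in small wave skin. These signals spanned 1.62-fold, the narrowest range of the 10 probes, where the probes tested had a median range of 5.23-fold. Over the 6 arrays its log2 signal had a slope of 0.038 on the log2 75th percentile, against a median slope of 0.995 over all probes and 0.627 in the brightest 10%. The other KRT35 probe (A_70_P049451) gave 23611, 15923 and 12595 in large wave and 3449, 17210 and 12495 in small wave skin. Only small wave replicate 1 stood apart, at rank 656 against 98 to 165 elsewhere. There the spot was marked as not uniform, and the ratio of this probe to the unmarked one was 0.29, where the other 5 arrays had 0.95 to 1.60.

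K38, keratin 38, is a type I keratin of the shaft. Its brighter probe (A_70_P048717) gave 18557, 11683 and 1362 in large wave and 11645, 3784 and 882 in small wave skin. The other probe (A_70_P048716) gave 7995, 5791 and 779 in large wave and 4847, 1539 and 362 in small wave skin. At both probes the replicate 3 arrays of both groups were the lowest, and the groups overlapped. Both probes followed each other closely, with a ratio of 0.41 to 0.57 on the 6 arrays and r = 0.99, and none of their 12 spots was marked. The rank of the brighter probe was 179, 174 and 1258 in large wave and 205, 442 and 1059 in small wave skin. Between large wave replicates 3 and 2, the 75th percentile was 249.2 against 204.7 and the 99th percentile 13421 against 13916. Both K38 probes were lower on replicate 3. Over all 6 arrays the log2 signal of the K38 probes had slopes of 1.84 and 1.92 on brightness (r = 0.73 and 0.77), whose part was not tested.

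LOC100526780, keratin 83, is a type II keratin of the cortex. It gave 37454, 23231 and 3726 in large wave and 25229, 18110 and 2069 in small wave skin, the last from a marked spot. Its rank was 80 to 104 on the arrays of replicates 1 and 2 and fell to 534 and 569 on those of replicate 3. KRT2.11 is a type II wool keratin whose probe A_70_P015941 was the brightest of the whole array in 3 lambs, namely the first and second large wave and the first small wave lamb. That probe gave 167606, 168893 and 94175 in large wave and 168388, 91880 and 59076 in small wave skin, and its rank was never lower than 12. All 6 of its spots were taken from the low gain scan and scaled up by the scanner software, as were 23 of the 60 keratin spots.

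The 3 KRT2.11 probes differed in their course over the arrays. Probe A_70_P016006 gave 104946, 9130 and 79094 in large wave and 78202, 78702 and 67829 in small wave skin. It ranked between 3 and 9 on 5 arrays and at 215 in large wave replicate 2, where the spot was unmarked. On that array A_70_P015941 was 18.5 times brighter than A_70_P016006, against 0.87 to 2.15 times on the other arrays. Probe A_70_P001746 gave 7006, 3368 and 2505 in large wave and 3819, 1458 and 391 in small wave skin, with the spots of large wave replicates 2 and 3 marked. In the deposited table, over 6 arrays, A_70_P015941 correlated at 0.90 with A_70_P001746 and at -0.39 with A_70_P016006. On the scaled signals these were -0.060 and -0.45, so A_70_P015941 and A_70_P001746 followed each other under 1 of the scalings.

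**Figure D2:**
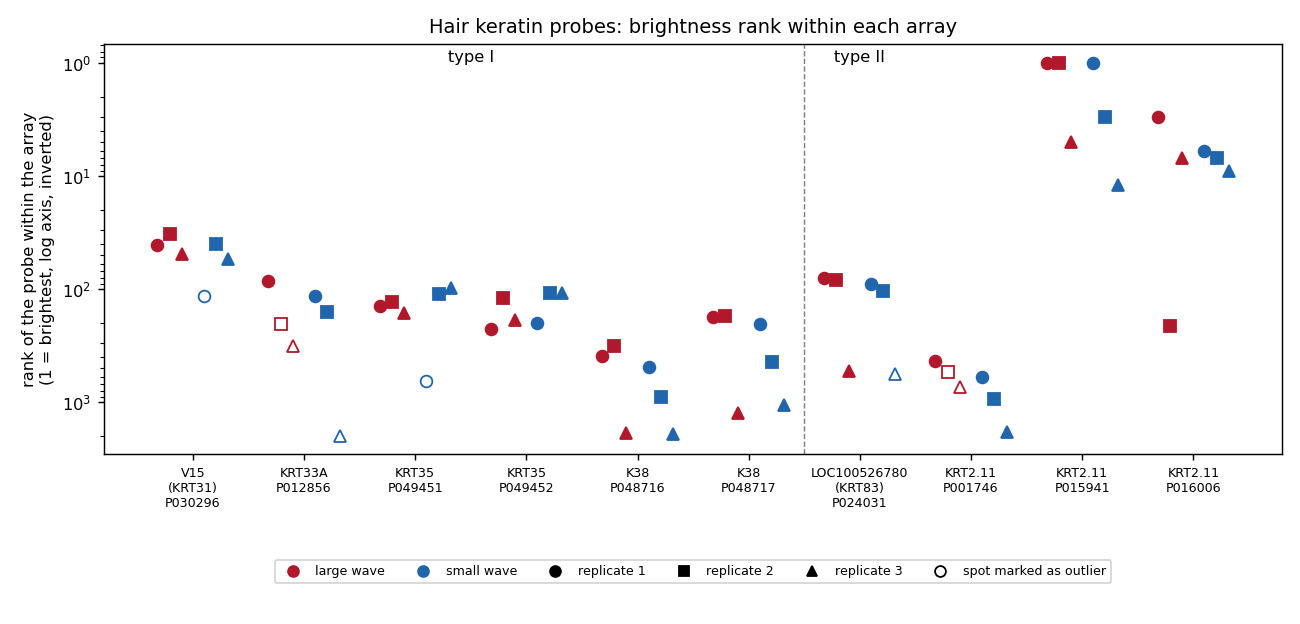
Rank of each hair keratin probe among the 15008 probes of its array (1 is the brightest; log axis, inverted); symbols as in the plot of signals. KRT2.11 probe A_70_P015941 holds rank 1 on 3 arrays, and its partner A_70_P016006 drops to 215 on large wave replicate 2 alone.

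No hair keratin differed between the coat types at an adjusted p under 0.05. In limma, 0 of the 10 keratin probes and 0 of 10045 probes in all passed (0%), with adjusted p from 0.777 to 0.959 for the keratins. At an unadjusted p under 0.05 there was 1 keratin probe, against 383 probes or 3.81% over the array. With marked spots left out, large wave skin was the higher group at 4 keratin probes and the lower at 6, with a median log2 difference of -0.41 against -0.019 over all probes. With marked spots kept it was 5 and 5 with a median of 0.053, and in the deposited table it was higher at 8 and lower at 2 with a median of 0.45 against 0.038 over all probes. The direction of the keratins as a group thus depended on the marked spots and on the scaling.

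The 1 probe under the unadjusted 0.05 was KRT35 A_70_P049451. Its scaled log2 signal averaged 5.95 ± 0.31 (SD, n = 3) in large wave and 6.93 ± 0.16 (SD, n = 2) in small wave skin. The difference was -0.98 ± 0.36 (SE, 95% confidence interval -1.85 to -0.11, limma unadjusted p = 0.032, adjusted p = 0.777). Small wave replicate 1 was left out there as marked. With that spot kept the difference was 0.13, and in the deposited table it was 0.50, so this probe did not keep its direction. Without any scaling between arrays it was 0.20. All probes tested had a median of 0.74 there, so the sign without scaling is no check on this probe. The unmarked KRT35 probe differed by -0.69 ± 0.51 (SE, n = 3 per group, limma adjusted p = 0.778) and by -0.34 in the deposited table. Without scaling it differed by 0.073, again beside the median of 0.74 over all probes. With the replicate number as a block the unadjusted p of A_70_P049451 was 0.068, which put 0 of the 8 keratin probes that could be fitted under 0.05, against 5.65% of all probes.

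Intervals were wide for the other genes. V15 differed by -0.58 ± 0.40 (SE, limma adjusted p = 0.777; n = 3 and 2) with its marked spot left out and by 0.47 in the deposited table. KRT33A differed by 0.34 ± 0.52 (limma adjusted p = 0.863; n = 1 and 2), so the large wave group gave no spread of its own. The brighter K38 probe differed by 0.21 ± 0.93 (SE, 95% confidence interval -1.95 to 2.38, limma adjusted p = 0.959; n = 3 per group). With the replicate number as a block the same difference had a narrower interval, -0.81 to 1.24 (SE 0.42, limma adjusted p = 0.854). LOC100526780 differed by -0.91 ± 0.87 (limma adjusted p = 0.787; n = 3 and 2) and by -0.17 with its marked spot kept.

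KRT2.11 gave 3 different answers. A_70_P015941 differed by -0.25 ± 0.41 (SE, limma adjusted p = 0.873), and by 0.34 in the deposited table. A_70_P016006 differed by -1.58 ± 0.77 (limma adjusted p = 0.777), and by -0.68 without large wave replicate 2. A_70_P001746 differed by 1.14 ± 0.72 with 1 large wave and 3 small wave arrays (limma adjusted p = 0.777), and by 0.83 with all spots kept. The last probe was higher in the large wave lamb of all 3 pairs, by 0.42, 0.78 and 1.28 on the scaled log2 scale with marked spots kept. On that scale A_70_P016006 was lower in all 3 pairs (-0.035, -3.54 and -1.17), as was KRT35 A_70_P049452 (-0.15, -0.48 and -1.43). In the deposited table A_70_P016006 had 0.082, -3.03 and 0.052, so its direction in pairs 1 and 3 depended on the scaling. There A_70_P001746 (0.52, 0.96 and 1.73) and KRT35 A_70_P049452 (-0.18, -0.10 and -0.74) kept theirs. The share of all probes with 1 direction in all 3 pairs was not computed. With the replicate block and marked spots kept, A_70_P001746 had a limma unadjusted p of 0.037 and an adjusted p of 0.625. There 1 of 10 keratin probes and 5.55% of all probes were under the unadjusted 0.05. The log2 signal of A_70_P001746 had a slope of 1.93 on array brightness, whose part was not tested with all spots. With marked spots left out, which leaves 1 large wave array, a model with brightness as a covariate gave -0.20.

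**Figure D3:**
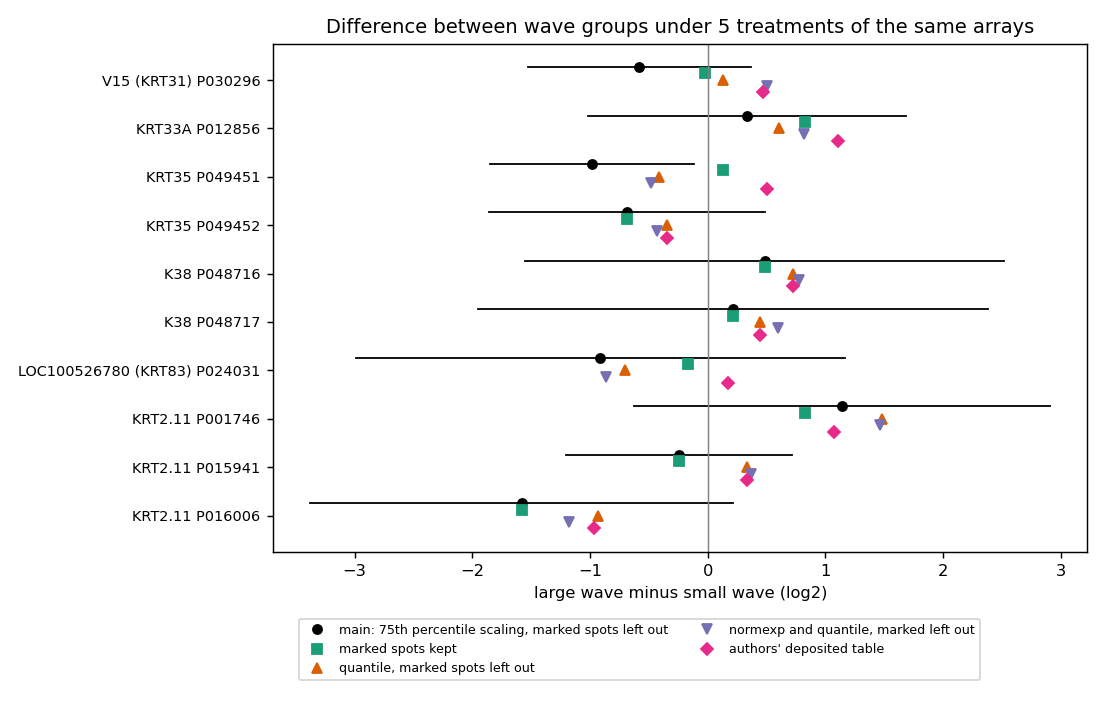
Difference between large and small wave skin (log2) for each hair keratin probe under 5 treatments of the same 6 arrays; the line is the 95% confidence interval of the main model. Each interval except that of KRT35 A_70_P049451 includes 0, and at V15, KRT35 A_70_P049451, LOC100526780 and KRT2.11 A_70_P015941 the treatments fall on both sides of 0.

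Whether the groups overlapped at a keratin went with the outlier marks. Of the 60 keratin spots 8 were marked, 4 in each group, all as not uniform, at 5 probes of 5 genes. Arrays as a whole had 0.0986 to 2.35% of spots marked, and marks were concentrated in bright probes: 36.3% of the brightest 10% of probes had at least 1 marked array, against 0.298% of the dimmest 10%. With marked spots left out the groups did not overlap at 4 of the 10 probes, where 11.1% of all probes did not overlap. Large wave was above at 2 of them, KRT33A and KRT2.11 A_70_P001746 (4.99% of all probes). Small wave was above at V15 and KRT35 A_70_P049451 (6.12% of all probes). Each of these 4 had lost 1 to 3 marked spots. With all spots kept, the groups overlapped at all 10 probes, where 9.74% of all probes did not overlap (4.56% with large wave above and 5.18% with small wave above). In the deposited table they overlapped at all 10 as well, against 8.83% of all probes without overlap.

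For some of these keratins lambs of the same number were more alike than lambs of the same coat. This comparison was chosen after the values were seen. LOC100526780 had deposited log2 values of 14.55, 14.51 and 11.80 in large wave lambs and 14.42, 14.22 and 11.70 in small wave lambs. The lambs of a number differed by 0.14, 0.28 and 0.10, while replicate 3 lay more than 2 log2 units below the others in both groups. Of the variance of this probe over the 6 arrays, 99.4% lay between replicate numbers and 0.47% between coat groups. Among all 10052 probes that passed the filter on dim probes, 0.0796% had as large a share between numbers, and the median probe had 45.6%. On the 75th percentile scale the share was 98.2%, reached by 0.487% of probes.

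K38 also had most of its variance there, with 90.1 and 84.2% of its variance between replicate numbers at its brighter and its other probe in the deposited table. Of all probes, 5.14 and 9.31% had as large a share, so K38 stood less apart than LOC100526780. KRT33A had 68.0%, V15 38.8% and the KRT35 probes 44.4 and 71.5%. The KRT2.11 probes had 51.9% (A_70_P001746), 73.5% (A_70_P015941) and 42.8% (A_70_P016006). The order of the arrays therefore differed between keratins of 1 type. In replicate 3, K38 was low while V15 and KRT35 kept ranks of 49 to 189. Replicate numbers 1 to 3 lay in slide columns 2, 3 and 4. What lambs of a number may share by a dam and by their place on the slide therefore cannot be told apart. The log2 75th percentile itself had 54.9% of its variance between replicate numbers. In whole skin, fewer cells making a keratin and less RNA per cell cannot be told apart.

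**Figure D4:**
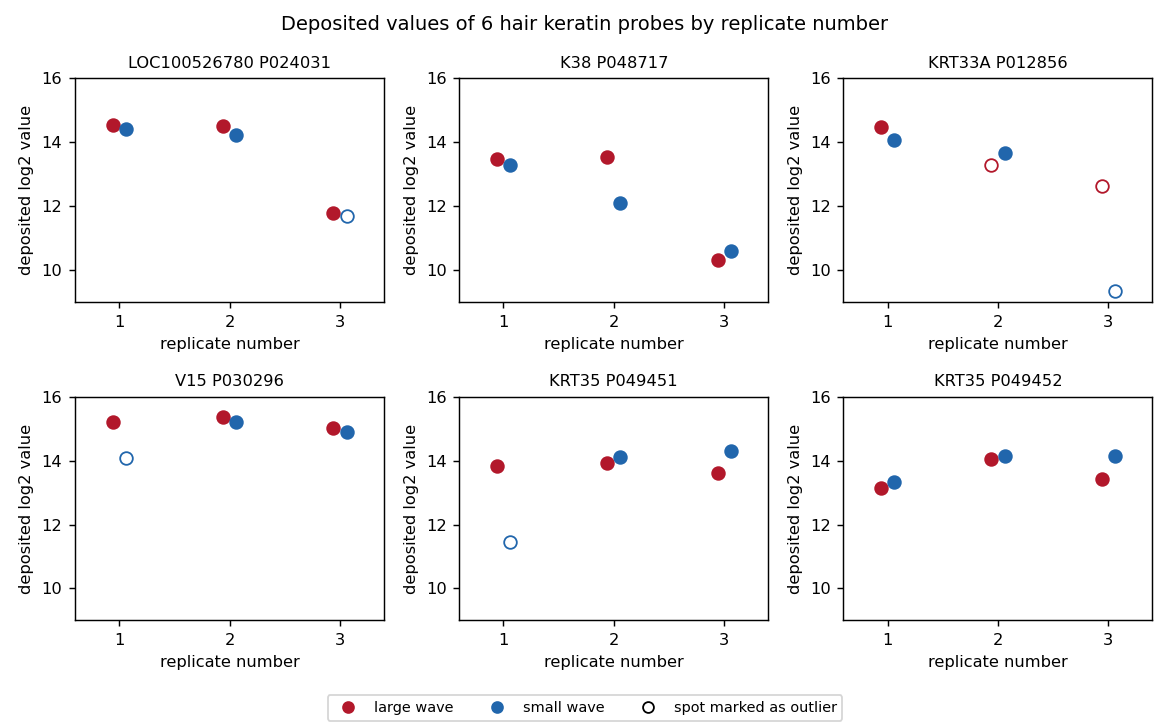
Deposited log2 values of 6 hair keratin probes against the replicate number, with large and small wave lambs in different colours and marked spots open. LOC100526780 and K38 A_70_P048717 drop at replicate 3 in both groups, to 11.80 or below from 12.11 or above, while V15 and the KRT35 probes stay at 13 or above except at 1 marked spot of KRT35.

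Type I and type II keratins were also compared as groups. For each array the mean over the type II genes and the mean over the type I genes were taken on the scaled log2 scale, with all spots kept. Relative to its mean over the arrays, the type I mean was 0.48, 0.63 and -0.78 in large wave and -0.19, 0.65 and -0.79 in small wave skin. The type II mean was 0.42, 0.25 and -1.05 in large wave and 0.38, 0.67 and -0.67 in small wave skin. Both means were lowest in replicate 3 of each group, but not every gene was. In small wave replicate 3, KRT2.11 A_70_P015941 and A_70_P016006 had scaled values of 9.29 and 9.48, their highest in small wave skin. The KRT35 probes (7.04 and 6.87) were also at their highest in small wave skin there, and V15 (7.78) was not at its lowest. The other KRT2.11 probe, A_70_P001746 (2.05), was at its lowest in small wave skin there, as were K38, KRT33A and LOC100526780. The high place of the first 2 KRT2.11 probes depended on the scaling. In the deposited table A_70_P015941 was at its lowest of all 6 arrays in small wave replicate 3 (16.12). A_70_P016006 was at 16.25 on that array, level with replicate 2 and below replicate 1 (16.36). Between the groups, large wave minus small wave was 0.22 for type I and -0.25 for type II, each less than the SD between lambs of a group (0.70 to 0.80).

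The balance of the types was a separate measure. Type II minus type I, relative to its mean over arrays, was -0.061, -0.38 and -0.26 in large wave and 0.57, 0.020 and 0.12 in small wave skin. All large wave arrays lay below all small wave arrays, by -0.47 between the group means. Within pairs it was -0.63, -0.40 and -0.38. The size of this difference rested on 1 probe. Without KRT2.11 probe A_70_P016006 the values were -0.030, 0.15 and -0.36 in large wave and 0.60, -0.14 and -0.22 in small wave skin, the groups overlapped, and the difference was -0.16. In the deposited table with all probes the values were 0.12, -0.41 and -0.30 in large wave and 0.68, -0.021 and -0.058 in small wave skin, which overlapped, while the difference was -0.40 and again negative in each pair (-0.56, -0.39 and -0.24). No test was made of this score, since the genes were chosen with earlier results known.

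**Figure D5:**
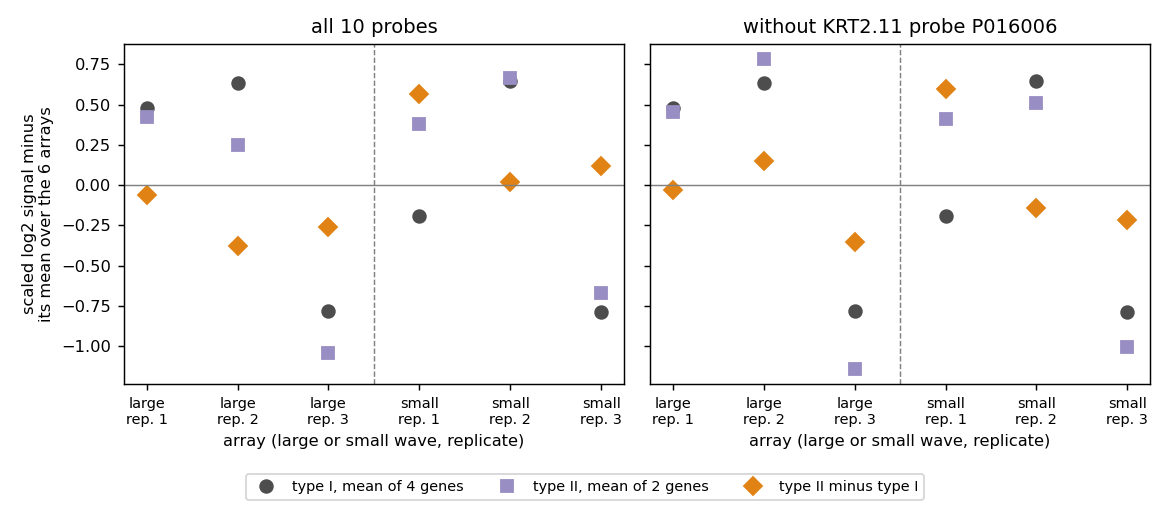
Mean scaled log2 signal of the 4 type I and 2 type II hair keratins on each array, and type II minus type I, each relative to its mean over the 6 arrays; the right panel leaves out KRT2.11 probe A_70_P016006. Both types are lowest in replicate 3 of each group, and the wave groups separate in type II minus type I in the left panel and overlap in the right one.

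Across the 6 arrays the keratin probes fell on more than one course. Of the 40 pairs of probes from different genes, 14 correlated above 0.7 and 23 below 0 in the deposited table, from -0.66 to 0.96 (a description over 6 arrays, which share slide and brightness). LOC100526780 correlated at 0.96 and 0.94 with the K38 probes, with 0.94 and 0.91 on the scaled signals. KRT2.11 A_70_P015941 correlated at 0.92 and 0.94 with them in the deposited table but at 0.49 and 0.46 on the scaled signals. V15 correlated at 0.90 with KRT35 A_70_P049451, where both had a marked low spot in small wave replicate 1, and at 0.37 with the unmarked KRT35 probe (0.82 on the scaled signals). KRT33A correlated at 0.82 with LOC100526780, where both had a marked low spot in small wave replicate 3. It correlated at 0.91 with KRT2.11 A_70_P001746, where both had marked spots in large wave replicates 2 and 3. K38 and KRT35 probes correlated between -0.36 and -0.25. K38 with LOC100526780 pairs a type I with a type II gene, and V15 with KRT35 pairs 2 type I genes.

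Of 257 other named genes well above background on all arrays, LOC100526782 was most like the mean course of the 10 probes, with r = 0.93 over the 6 arrays (0.97 in the deposited table). In the RefSeq gene order LOC100526782 is the direct neighbour of KRT33A. It gave signals of 47642, 20287 and 12345 in large wave and 30925, 19856 and 4777 in small wave skin, with the lowest rank, 168 and 263, again in replicate 3 of each group. Its coat groups overlapped, and 95.4% of its scaled variance lay between replicate numbers. Next came LHB (r = 0.91), the luteinizing hormone beta subunit; PPIE (0.91, but 0.51 in the deposited table), a cyclophilin; ATP5PO (0.88), an ATP synthase subunit; and CFL1 (0.88), cofilin. Their r with array brightness was between -0.12 and 0.58, that of LOC100526782 was 0.44 and that of the keratin mean 0.20, or 0.70 in the deposited table.

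Other genes of the follicle were counted from fixed lists, and 0 of them passed the adjusted threshold. Both other measured genes with a KRT symbol or synonym, KRT25 and KRT27 of the inner root sheath, were lower in large wave skin by value. So were they in the deposited table. A keratin gene under another kind of symbol would not be in this list. In large wave skin neither ranked lowest in replicate 3, and in small wave skin only KRT25 did, level with replicate 2. KRT25 was at 75, 312 and 39 in large wave and 66, 75 and 75 in small wave skin, and KRT27 at 22, 161 and 95 and at 42, 42 and 23. Both ranked lowest in large wave replicate 2, the array on which KRT2.11 A_70_P016006 also ranked lowest, and 4 of the 12 spots were marked. Both keratin-associated proteins had higher values. KRTAP4.3 ranked at 100, 211 and 190 in large wave and at 135, 359 and 758 in small wave skin, and KRTAP5.4 at 249, 281 and 247 and at 268, 388 and 541. KRTAP5.4 had at least 1 marked spot in large wave replicate 2 and in each small wave array, but kept a value on all 6 arrays without them. By unscaled signal and by rank, large wave was the higher lamb of each pair for both genes. The share of all probes with this was not computed. KRTAP4.3 had a slope of 2.13 on array brightness and KRTAP5.4 of 1.29, and the part of brightness was not tested.

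Of 10 measured regulators of the hair matrix and cortex, 4 were higher by value in large wave skin and 6 were lower. The smallest unadjusted p were those of IGF2, at -1.54 ± 0.73 (SE; -0.74 in the deposited table), and the BMP receptor BMPR1B, at -0.67 ± 0.35 (limma adjusted p = 0.777 for both). In the cross-linking and cornification list PADI3 was higher by 1.04 ± 0.35 and SFN lower, at -1.12 ± 0.45 (limma adjusted p = 0.777 for both). The SFN value rests on 4 arrays, with 2 marked spots left out, and was -0.26 in the deposited table. Markers of other cell types were few on the array, at 1 to 4 genes measured per type, and 0 passed the adjusted threshold. The 4 inner root sheath markers had a summed signal of 29009 to 126126 in large wave and 58044 to 81880 in small wave skin. DCN, the 1 fibroblast marker, gave 8738 to 18464 against 89.6 to 9652. The 89.6 is a marked spot of small wave replicate 3, and the other small wave arrays had 7897 and 9652. The DCN difference was 0.097 with marked spots left out and 2.04 in the deposited table. The 3 leukocyte markers summed to 93.3 to 178.2 against 71.2 to 95.6 in unscaled signal, but after scaling all 3 were lower in large wave skin by value. Among the markers, these were named after their values were seen: the largest difference was that of AQP1, a water channel of vessels, at -2.29 ± 0.70 (SE; -2.31 in the deposited table; limma unadjusted p = 0.011, adjusted p = 0.777). The muscle gene TNNC2 differed by -1.35 ± 0.43 and MYL11 by 0.74 ± 0.37 (limma adjusted p = 0.777 for both). The part of cell makeup in the keratin values was not tested.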

How the data were processed

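Per the file headers, the scanner files deposited for the 6 lambs hold spot intensity values from Agilent Feature Extraction 10.7.3.1 (10.7 per the submitters' processing notes), array design 019921, read over an extended range from a low and a high gain scan. The processed signal is background-subtracted with no scaling across arrays. The authors' deposited table holds log2 values, made by a normalization that the labels and headers do not name; each of its columns has a median of 4.95, and it correlated at 0.99999 or above with quantile-normalised log2 processed signals, across probes.

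Log2 processed signals were taken minus each array's 75th percentile. Spots marked as outliers by Feature Extraction were left out, and probes well above background on at least 3 of 6 arrays were kept. Groups were compared with limma 3.58.1 (R 4.3.3, lmFit, eBayes, trend on), and p-values were adjusted by Benjamini-Hochberg over 10045 probes, at 0.05, after the model had been tested on simulated data. The number of arrays limits the precision. Ranks, per-array values and differences between keratin types were computed with marked spots kept, in Python 3.11.15. Probes were named by RefSeq accession, without versions, through the RefSeq table (ARS-UI_Ramb_v3.0), which held 767 of the 786. No genome, probe or protein sequence was used.

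After subtraction of group means, the lambs numbered 1, 2 and 3 correlated across groups at 0.30, 0.18 and 0.21, each above 0.1, over 9224 probes. The numbers were therefore taken to pair the lambs, and a block for them was an alternative. Lambs of different numbers were not correlated in this way, and each number had its own slide column. The correlations therefore cannot show a shared dam. Other alternatives were quantile normalization alone or after normexp correction (offset 50), the deposited table, marked spots kept, other filters, the slide row, brightness as a covariate, no trend, array weights, the mean over a gene's probes and leaving out each array. All 6 genes are described at every probe, the kept probe of highest mean stands for a gene where 1 is needed, 2 genes are named from each related list by smallest unadjusted p, and the 5 genes with the highest correlation to the members are named. Members and lists were chosen with earlier results of these data known.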

Additional observations from a re-analysis of the deposited data

How the results depend on the processing

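Over 19 alternatives, of which the absence of scaling between arrays was chosen after seeing the data, 0 probes of the array and 0 hair keratin probes passed limma's adjusted threshold. The 10 keratin differences took 182 alternative values, with adjusted p of 0.247 or above, and 26 of them had the other sign, at 8 probes. KRT2.11 A_70_P016006 kept its sign. KRT33A did too, but it had 3 unmarked arrays. Its fits without 1 of its marked arrays repeat the main value of 0.34 and could not change sign. KRT33A and KRT2.11 A_70_P001746 could not be fitted under the replicate block, and KRT33A neither with the slide row or brightness nor without 3 of the arrays in turn. KRT2.11 A_70_P015941 changed to 0.37 (normexp), 0.33 (quantile), 0.34 (deposited table) and 0.51 (no scaling), and V15 to 0.51, 0.13, 0.47 and 0.60 in the same order. KRT35 A_70_P049451 changed to 0.50 in the deposited table, 0.13 with marked spots kept, with or without the replicate block, and 0.20 without scaling. LOC100526780 changed to 0.17 in the deposited table and, with the replicate block, to 0.021. With brightness as a covariate K38 had -0.32 and -0.64, KRT2.11 A_70_P001746 had -0.20 and KRT35 A_70_P049452 had 0.066, the latter 0.073 without scaling; with array weights K38 A_70_P048717 had -0.11. Leaving out 1 array gave -0.12 to 1.47 and -0.39 to 1.30 for the K38 probes and -1.44 to 0.021 for LOC100526780. Type II minus type I was -0.71 after normexp, and -0.16, or -0.12 in the deposited table, without KRT2.11 A_70_P016006, a choice made after seeing the data; leaving out 1 array gave -0.58 to -0.30. The causes were not tested. The count of keratin spots in the brightest 1% was 30 with the raw signal too. The deposited table holds the same keratin ranks as the processed signal, so its count could not differ. The replicate block changed no adjusted call. Probes tested had a median shift of 0.74 on the log2 scale without scaling.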
